A study of Mus musculus with 8 samples.

Results

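The 10 genes described here carry out antigen presentation by the major histocompatibility complex (MHC), and they were taken by symbol from the table of bulk RNA-seq counts of leukemic stem cells (LSCs). They comprise 4 genes of the class II pathway (Cd74, H2-Aa, H2-Ab1 and H2-Eb1) and 6 of the class I pathway (H2-K1, H2-D1, H2-T23, B2m, Tap1 and Nlrc5). All 10 were among the 15576 rows of the table and among the 11937 genes with enough counts to be tested. The study compared LSCs of mice with chronic myeloid leukemia (CML) that had received no drug with those that persisted during treatment with the tyrosine kinase inhibitor imatinib (CML-TKI). Both groups were C57BL/6 mice carrying BCR-ABL and SCL-tTA transgenes, so that the untreated controls carried the oncogene too, driven in stem cells by the SCL enhancer once tetracycline was removed. CML-TKI mice were given 400 mg/kg imatinib by gavage every other day for 4 weeks according to the labels. The study's figure legend for the LSC RNA-seq names a lower dose instead, and the sources used here do not settle which was given. Bone marrow cells of both groups carry the same labelled gate, lineage-negative, Sca1+, cKit+, Flt3-, CD150- and CD48+. Neither the age of each mouse nor pooling is given, and the labels do not say that the 4 libraries of a group came from separate mice, so p-values measure only the spread between these libraries, which may be technical.

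Class I molecules pair a heavy chain with B2m and show peptides made inside the cell to CD8 T cells, and the peptides reach them through the TAP transporter, of which Tap1 is a subunit. Class II molecules pair an alpha and a beta chain, are held by the invariant chain Cd74 until a peptide is loaded, and show peptides to CD4 T cells, mainly on dendritic cells, B cells and macrophages, although blood stem and progenitor cells can carry them. Nlrc5 and Ciita do not bind DNA themselves but act on class I and class II promoters through proteins seated on the X and Y boxes, and the Y box holds an inverted CCAAT sequence bound by NF-Y.

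The core of the Y box, ATTGG, was found in each of the 7 members that have an entry in the promoter table of RefSeq (GRCm38.p6), which covers 300 bases around each start site, and its surroundings are shown for 6 of them. H2-Ab1, Cd74 and Nlrc5 have no entry there. Some windows also hold annotated exons (GENCODE). Of the bases from 150 to 6 before the start site, all 145 overlap an exon of the same gene in H2-D1 and in H2-T23. In Tap1 all 145 overlap an exon of Psmb9. Each line gives 30 bases read 5′ to 3′ on the strand named, and the capitals mark the core ATTGG. Not every such match need be a Y box: the plus-strand match of H2-K1 begins at position 8, after the outer of the 2 H2-K1 start sites in that table, from which positions are counted (34000347, inside the gene span given below), and the match of Tap1 begins at position -222, upstream of its X box match at -98.
H2-K1, chr17:34000346-34000375, minus strand: gctcttacccccATTGGgtggcgcgatcac
H2-K1, chr17:34000323-34000352, plus strand: gcggcgacactgATTGGttcttggtgatcg
H2-D1, chr17:35263006-35263035, plus strand: ggtctcactatcATTGGgtggcgagattcc
H2-D1, chr17:35263028-35263057, minus strand: gcggcgacgctgATTGGctcctggaatctc
H2-T23, chr17:36032737-36032766, plus strand: tctgcgtcgctgATTGGcttttagaaaact
Tap1, chr17:34187321-34187350, minus strand: gcgcagccgctgATTGGaaagccgagcccc
H2-Aa, chr17:34287854-34287883, minus strand: gagaattttctgATTGGttctggcgagttt
H2-Eb1, chr17:34305796-34305825, plus strand: cctttgatgctgATTGGctcccagcactgg
H2-Eb1, chr17:34305819-34305848, minus strand: ctttgccactggATTGGgtaaggccagtgc

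The core ATTGG was found on either strand in 7 of 7 members, and 37.4% of all 32851 windows of that length hold it. The other motifs were rarer. The interferon-stimulated response core, GAAA and GAAA with 2 bases of any kind between them, was in 2 of 7 (H2-T23 among them) and in 3.44% of all windows. The NF-kB motif GGGNNTTCC was in 3 of 7 (H2-K1, H2-D1 and H2-Aa) and in 5.82% of windows. The X box cores were CCNAGNNAC, in 2 of 7 (H2-Aa and Tap1) and 17.3% of windows, and TAGCAACNG, in 1 of 7 (H2-Eb1) and 1.39% of windows. The STAT core TTCNNNGAA was in 0 of 7 and 8.3% of windows. Both strands were searched and no match overlapped another. A match of letters describes the window and does not show that a protein is bound there. The H2-Eb1 promoter is given at greater length, from 150 to 6 bases before the start site on the plus strand, because it holds an X box match beside ATTGG matches. Capitals mark TAGCAACNG and ATTGG, or CCAAT where ATTGG is on the opposite strand.
H2-Eb1, chr17:34305717-34305861: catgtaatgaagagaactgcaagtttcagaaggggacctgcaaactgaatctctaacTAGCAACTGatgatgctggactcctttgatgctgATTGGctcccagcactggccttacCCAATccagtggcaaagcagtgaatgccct

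Library totals ranged from 4939644 to 8620101 counts in the 4 CML libraries, numbered 1, 2, 3 and 5, and from 1041552 to 5104268 in CML-TKI libraries 1 to 4, and CML-TKI 3 was the shallowest. Levels are given as CPM, counts scaled to a common library total with TMM factors. On this scale the smallest level taken as resolved, 3 counts, was 0.409 to 0.580 CPM in CML libraries and 0.570 to 3.29 CPM in CML-TKI libraries, a floor that covers counting error only. 3 libraries stood apart. CML-TKI 3 carried erythroid and B cell transcripts, with 50412 CPM summed over the 9 erythroid markers against 67.8 to 555 CPM in the other CML-TKI libraries. CML-TKI 1 lay at -19.2 on the first principal component, between the CML libraries (-74.4 to -69.3) and the other CML-TKI libraries (70.1 to 118.8). CML 5 had 38.3% of its counts on the ribosomal RNA gene Rn45s, against 20.2% to 23.1% in CML 1, 2 and 3. The transcripts of the sorted surface proteins differed between the groups. Slamf1, which encodes CD150, was at 29.01 to 37.7 CPM in CML and 0.62 to 6.58 CPM in CML-TKI libraries (log2 fold change -3.42, adjusted p = 0.00797), and Cd48 was at 3.86 to 6.40 and 39.9 to 178 CPM (4.35, adjusted p = 0.000870). The Slamf1 level in CML-TKI 2 stood on 2 counts, below the floor. The call of Slamf1 was lost in 3 of 18 alternative settings (adjusted p up to 0.133). Kit fell by 1.92 on the log2 scale (adjusted p = 0.000870), whereas Ly6a (-1.12, adjusted p = 0.373) and Flt3 (0.65, adjusted p = 0.522) did not pass the test. Ly6a, which encodes Sca1, passed as lower without CML-TKI 1 (-2.52, adjusted p = 0.0117) and with limma-voom (-2.42, adjusted p = 0.0233). The labelled gate, CD150- and CD48+, is the same for both groups, and the study's own text instead defines LSCs by the opposite pair, CD48- and CD150+. The sources used here do not settle which gate each library had, and LSC is used as the study's name for the sorted cells. In these libraries Slamf1 was higher and Cd48 lower in every CML library than in every CML-TKI library.

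4 of the 10 members were lower in CML-TKI LSCs and 0 were higher at an adjusted p under 0.05 (quasi-likelihood test of edgeR, adjusted after Benjamini and Hochberg over all genes), where 3.93% of the genes tested were lower, 6.29% were higher and 10.2% changed in either direction. The 4 that fell, H2-K1, H2-T23, Tap1 and B2m, all belong to class I. At an unadjusted p under 0.05, 6 members were lower and 0 higher, where 12.1% of all genes were lower and 13.7% higher. With DESeq2 6 members were lower and 0 higher (7.94% and 9.75% of the genes with an adjusted p), and with limma-voom also 6 and 0 (11.0% and 10.5%). Without CML-TKI 3 the count of lower members was again 4, with Nlrc5 in place of B2m (4.17% of all genes were lower), without CML-TKI 1 it was 4 (11.0%), and without CML 5 it was 3 (2.10%). It was 1, H2-K1, when CML 1 to 3 were summed to 1 library (0.159%). CML 1 to 3 were far closer to each other (chi-square over genes per degree of freedom 3.58 to 4.75) than any other pair within a group (23.8 to 61.0), yet the main test counts them as separate libraries. In 5 of the 10 members every CML-TKI library lay below every CML library, which held for 13.1% of the genes tested, and in 0 members every CML-TKI library lay above, against 10.3%. The median log2 fold change was -1.12 over the 6 class I members and -0.74 over the 4 class II members, beside -0.000258 over all genes tested. In bulk libraries, fewer cells that express a gene and less RNA per cell cannot be told apart.

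**Figure D1:**
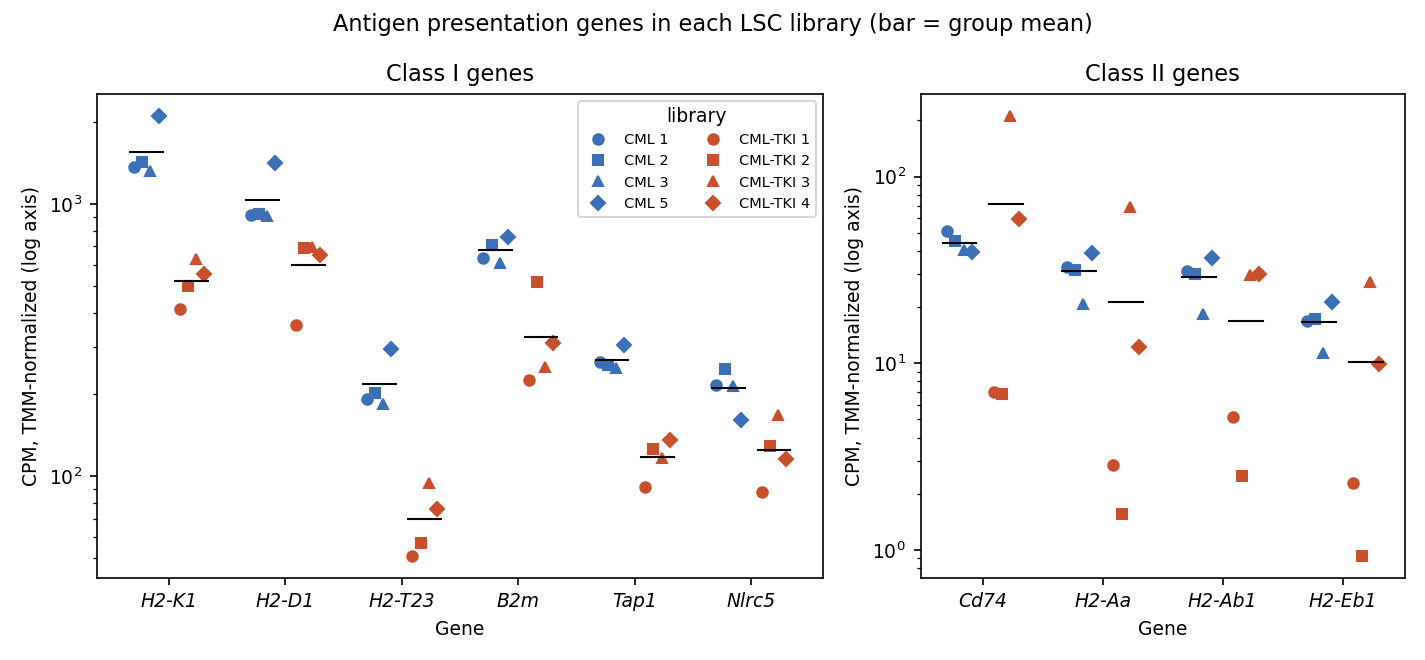
TMM-normalized CPM (log axis) of the 6 class I genes (left) and 4 class II genes (right) in each of the 4 CML (blue) and 4 CML-TKI (red) libraries, with the group mean as a bar. The red points lie below all blue points for H2-K1, H2-D1, H2-T23, B2m and Tap1, whereas for the class II genes CML-TKI 1 and 2 lie low and CML-TKI 3 and 4 reach or approach the CML libraries.

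H2-K1 encodes the classical heavy chain H-2K and lies on chromosome 17 (GRCm38.p6, 33996012 to 34000619, minus strand). It was measured at 1372, 1431, 1320.1 and 2118 CPM in CML 1, 2, 3 and 5. In CML-TKI 1 to 4 it was at 412, 502, 630.2 and 554 CPM, so that the highest CML-TKI library had well below the level of the lowest CML library. The means were 1560.35 ± 375 and 524 ± 91.7 CPM (SD, n = 4 each), which is 2.98-fold lower, or -1.57 on the log2 scale (standard error 0.23, adjusted p = 0.00325). CML 5 stood above the other CML libraries, and without it the log2 fold change was -1.40 (adjusted p = 0.00675). The gene passed the threshold in all 18 alternative settings, with adjusted p-values up to 0.0496.

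H2-T23 encodes Qa-1, a non-classical heavy chain that is a ligand of the NK cell receptor NKG2A (chromosome 17, 36029977 to 36032701, minus strand). Its CML libraries held 192, 203, 185 and 295 CPM. The CML-TKI libraries held 51.1, 56.7, 94.3 and 76.2 CPM, with no overlap between the groups. The means were 219 ± 51.3 and 69.6 ± 19.7 CPM (SD, n = 4 each), with a difference of -1.66 on the log2 scale (standard error 0.27, adjusted p = 0.00466). It ranged from -1.82 to -1.50 when each library was left out in turn, with adjusted p-values up to 0.0178. Over all 18 alternative settings the call was lost in 2 (adjusted p up to 0.0718).

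H2-D1, the other classical heavy chain of this strain (chromosome 17, 35263094 to 35267497, plus strand), changed less. Its levels were 916, 923, 903 and 1421 CPM in CML and 359.5, 693, 696 and 650.4 CPM in CML-TKI libraries. The groups did not overlap, but the log2 fold change of -0.80 (standard error 0.27) did not pass the threshold (adjusted p = 0.0914). With DESeq2 the adjusted p was 0.0261 and with limma-voom 0.0270, and over all 18 alternatives it ranged from 0.0261 to 0.290. The ratio of H2-K1 to H2-D1 counts within a library was 1.498, 1.55, 1.46 and 1.49 in CML libraries. In CML-TKI libraries it was 1.15, 0.725, 0.906 and 0.851, again with no overlap. H2-K1 thus had more counts than H2-D1 in every CML library and in CML-TKI 1, and fewer in CML-TKI 2, 3 and 4. These genes have near copies: 8.11% of the 50-base stretches of the H2-K1 transcript, 14.3% of those of H2-D1 and 14.96% of those of H2-T23 also occur in another gene. How the counting assigned such reads is not stated in the sources used here, so that single rows of the family are uncertain.

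The 18 H2-K, H2-D, H2-Q and H2-T rows were also added up before the fit. Reads shared within the family stay within this sum only if they were counted on one of its rows, which the sources used here do not state. The sum was 3570.0, 3785, 3484 and 5252 CPM in CML libraries and 1069.5, 1379.9, 1995 and 1563 CPM in CML-TKI libraries. The groups did not overlap. Their sum was lower by a log2 fold change of -1.42 (standard error 0.24 and adjusted p = 0.00660).

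B2m encodes the light chain shared by all class I heavy chains and lies outside the MHC on chromosome 2 (122147687 to 122153082, plus strand). It was at 632, 709.9, 611 and 758 CPM in CML libraries. The CML-TKI libraries were at 227, 518, 252 and 308 CPM, and CML-TKI 2 came nearest to the CML range without reaching it. From 678 ± 68.3 CPM in CML to 326 ± 132 CPM in CML-TKI (SD, n = 4 each) it changed by -1.05 on the log2 scale (standard error 0.28, adjusted p = 0.0404). This call was the least stable of the 4: the adjusted p was 0.0767 to 0.108 without any one of the CML libraries, 0.0860 without CML-TKI 3 and 0.0869 without CML-TKI 4, while the log2 fold change stayed between -1.37 and -0.92. No 50-base stretch of B2m occurs in another gene.

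Tap1 moves peptides into the endoplasmic reticulum (chromosome 17, 34187556 to 34197225, plus strand). Its CML libraries were close together at 264, 256, 251 and 303 CPM. The CML-TKI libraries held 91.7, 126, 117 and 137 CPM, all lower. On the log2 scale Tap1 differed by -1.19 (standard error 0.20, adjusted p = 0.00604), with the smallest standard error among the members, and this value was between -1.27 and -1.09 whichever library was left out, with adjusted p-values up to 0.0294. Over all 18 alternative settings the call of Tap1 was lost in 2 (adjusted p up to 0.105).

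Nlrc5, the transactivator of class I genes (chromosome 8, 94434335 to 94527272, plus strand), was at 218, 249, 215 and 161 CPM in CML libraries. In CML-TKI libraries it was at 87.9, 129, 168 and 116 CPM, and CML-TKI 3 reached above CML 5. Its log2 fold change of -0.76 (standard error 0.25) did not pass the threshold (adjusted p = 0.0811). It passed without CML-TKI 3 (-0.91, adjusted p = 0.0458), when scaled by total counts without Rn45s (adjusted p = 0.0339), with DESeq2 (adjusted p = 0.0177) and with limma-voom (adjusted p = 0.00771), and over all alternatives the adjusted p ranged from 0.00771 to 0.458.

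CML-TKI 1 had the lowest level of all 8 libraries for each of the 6 class I members. It was also the CML-TKI library with most transcripts of hematopoietic stem cell markers. Summed over the 10 HSC markers (among them Hlf, Mecom and Gata2), the CML libraries held 1295 to 1461 CPM and CML-TKI 1 to 4 held 412, 28.8, 136 and 115 CPM, and 4 of the 9 markers tested were lower in CML-TKI. Mecom was at 0 in CML-TKI 2 and 4. Of the 11 granulocyte markers tested 10 were higher in CML-TKI, with sums of 152 to 254 CPM in CML and 1439.7 to 8401 CPM in CML-TKI libraries, and of the 9 monocyte and macrophage markers tested 7 were higher, with sums of 25.7 to 78.5 and 476 to 2329 CPM. The part of these differences in cell markers in the lower class I levels was not tested. Without CML-TKI 1, H2-K1 (-1.48, adjusted p = 0.00282), H2-T23 (-1.55, adjusted p = 0.00436), Tap1 (-1.09, adjusted p = 0.00454) and B2m (-0.92, adjusted p = 0.0409) were still past the threshold.

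0 of the 4 class II members passed the test at an adjusted p under 0.05 in edgeR, DESeq2 or limma-voom, and 0 had an unadjusted p under 0.05 in edgeR, while H2-Aa came near with limma-voom (adjusted p = 0.0569). Their CML-TKI libraries were spread far more widely than their CML libraries. The coefficient of variation was 12.4% to 26.3% over the CML libraries and 89.6% to 149.9% over the CML-TKI libraries. CML-TKI 1 and 2 lay below every CML library for each of the 4 genes, whereas CML-TKI 3 lay within or above the CML range for each of them.

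Cd74 encodes the invariant chain (chromosome 18, 60803849 to 60812652, plus strand), which blocks the peptide groove of class II molecules on their way to the endosome. It was at 51.3, 45.4, 40.4 and 39.5 CPM in CML libraries. In CML-TKI libraries it was at 7.03, 6.82, 213 and 59.1 CPM, so that libraries 1 and 2 were below and libraries 3 and 4 above the whole CML range. With means of 44.1 ± 5.46 and 71.4 ± 97.3 CPM (SD, n = 4 each), the log2 fold change was 0.64 (standard error 0.91, adjusted p = 0.712), and its sign turned without CML-TKI 3 (-0.85, adjusted p = 0.487), with limma-voom and with the replicate block.

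H2-Aa encodes the alpha chain of I-A (chromosome 17, 34282744 to 34287823, minus strand). Its CML libraries held 32.8, 31.5, 20.9 and 39.0 CPM, and its CML-TKI libraries held 2.85, 1.55, 69.0 and 12.2 CPM. CML-TKI 3 was the single one above the CML libraries, and it stood on 63 counts, with 15, 5 and 47 counts in CML-TKI 1, 2 and 4. On the log2 scale the groups differed by -0.66 (standard error 0.95, adjusted p = 0.715). The difference depended on single libraries and on the tool: it was -2.47 without CML-TKI 3 (adjusted p = 0.0547), -0.31 without CML-TKI 1, -0.27 without CML-TKI 2 (adjusted p = 0.889) and, with all 8 libraries, -2.07 with limma-voom.

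H2-Ab1 encodes the beta chain of I-A (chromosome 17, 34263227 to 34269418, plus strand). It was at 31.3, 29.9, 18.4 and 36.4 CPM in CML and at 5.13, 2.48, 29.6 and 30.2 CPM in CML-TKI libraries. Here CML-TKI 3 and 4 both lay within the CML range. The fitted difference was -0.83 on the log2 scale (standard error 0.70, adjusted p = 0.500). It ran from -1.39 without CML-TKI 4 (adjusted p = 0.300) to -0.46 without CML-TKI 2 (adjusted p = 0.672), with -1.19 without CML-TKI 3 and -0.53 without CML-TKI 1, and was -1.24 with limma-voom (adjusted p = 0.225).

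H2-Eb1 encodes the beta chain of I-E (chromosome 17, 34305867 to 34316674, plus strand), whose alpha chain gene is not expressed in the C57BL/6 strain. It was at 16.9, 17.2, 11.4 and 21.3 CPM in CML and at 2.28, 0.930, 27.4 and 9.89 CPM in CML-TKI libraries. CML-TKI 2 was at the floor with 3 counts, and CML-TKI 3 was the highest of all 8 libraries. Its log2 fold change was -0.85 (standard error 0.84, adjusted p = 0.574). It was -1.92 without CML-TKI 3 (adjusted p = 0.129), -0.53 without CML-TKI 1, -0.46 without CML-TKI 2 (adjusted p = 0.740) and -1.63 with limma-voom (adjusted p = 0.128). On libraries 1 to 3 with the replicate block, H2-Aa was at -2.24, H2-Ab1 at -1.88 and H2-Eb1 at -1.98, with adjusted p-values from 0.381 to 0.473.

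**Figure D2:**
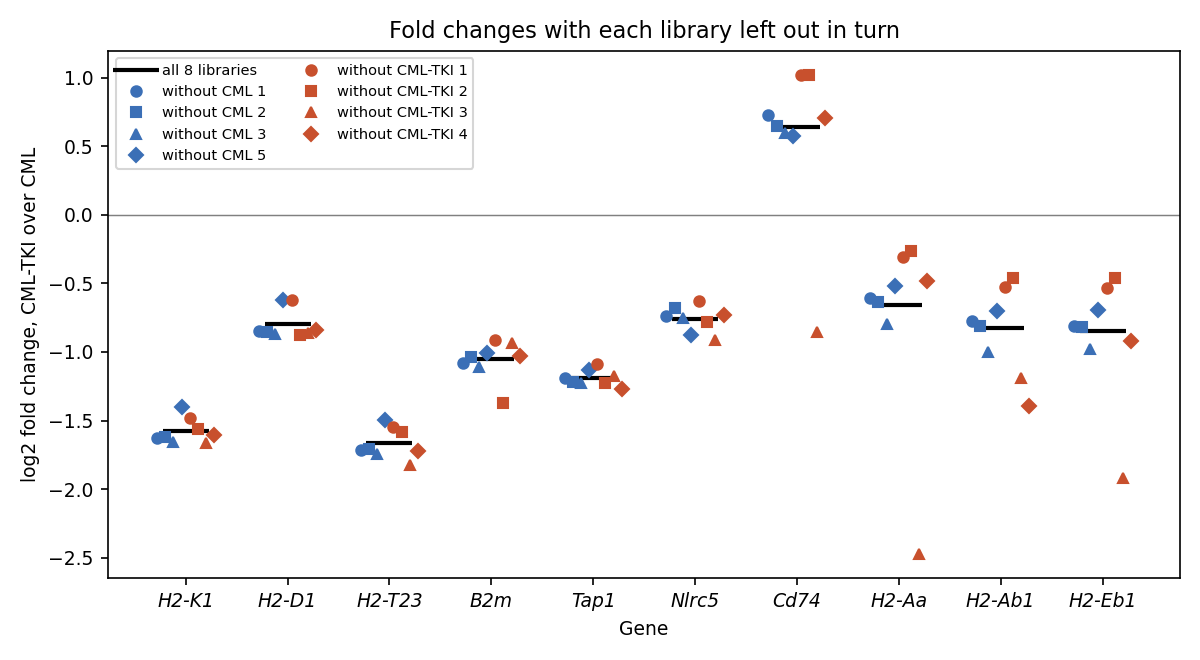
The log2 fold change (CML-TKI over CML) of each member with all 8 libraries (black bar) and after leaving out 1 library at a time (points). Class I genes keep to a narrow band below 0, whereas leaving out CML-TKI 3 moves H2-Aa from -0.66 to -2.47, H2-Eb1 from -0.85 to -1.92 and Cd74 from 0.64 to -0.85.

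B cell, dendritic cell, and T and NK cell transcripts differed among the CML-TKI libraries, as did those of monocytes and macrophages. The 9 B cell markers of the table summed to 18.1 to 24.2 CPM in CML libraries, to 21.3, 22.9 and 19.5 CPM in CML-TKI 1, 2 and 4, and to 453 CPM in CML-TKI 3. Cd22 (123 CPM) and Pax5 (51.5 CPM) were both detected in CML-TKI 3 and were at most 3.23 CPM in the other libraries. Cd79a was at 0 in CML 2 and CML-TKI 2. Only 1 of the B cell markers, Cd79b, had enough counts to be tested, and it did not pass (0.14, adjusted p = 0.862). These single markers, as those of the next paragraph, were chosen after their values were seen.

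Dendritic cell markers followed CML-TKI 3 and 4 in part. Itgax was at 14.2 and 5.46 CPM there, Siglech at 19.7 and 9.63 CPM and Ccr7 at 9.86 and 9.37 CPM, while all 3 were at or below 1.16 CPM in each of the other libraries. The 11 markers of the list in the table summed to 85.2 to 149 CPM in CML and to 170.4, 57.3, 144 and 165 CPM in CML-TKI 1 to 4, and 0 of the 5 tested passed (0 with an adjusted p under 0.05 in edgeR). Xcr1 and Clec9a were at 0 in CML-TKI 3. The 8 T and NK cell markers summed to 21.2 to 40.1 CPM in CML and to 20.7, 40.9, 240.0 and 104 CPM in CML-TKI libraries. The 12 monocyte and macrophage markers summed to 476, 2329, 1751 and 1267 CPM in CML-TKI 1 to 4, so that their sum was highest in CML-TKI 2, where the 4 class II members summed to 11.8 CPM, their lowest value. The part of these other cell types in the class II levels was not tested.

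**Figure D3:**
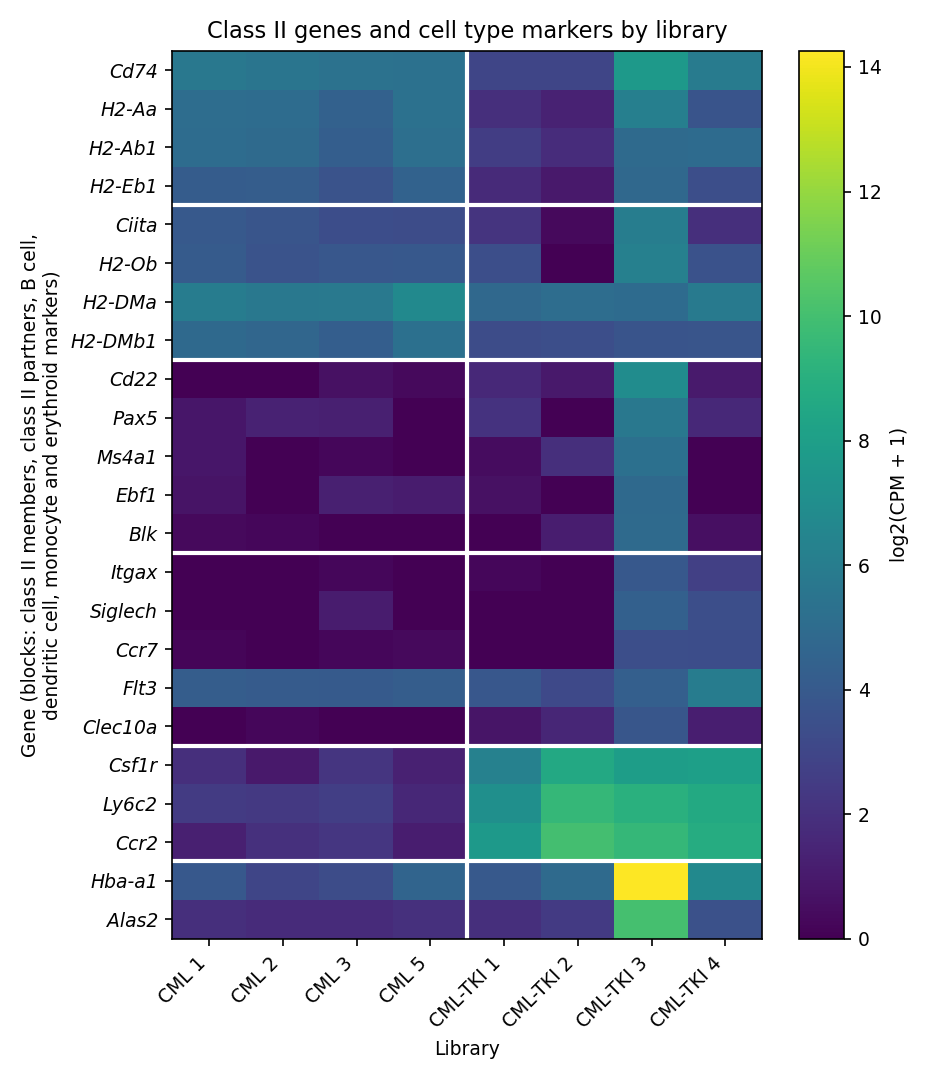
Heat map of log2(CPM + 1) in each library (columns) for class II members and partners and for markers of B cells, dendritic cells, monocytes and erythroid cells (rows, in blocks set apart by white lines). CML-TKI 3 holds the highest levels of Cd74, H2-Aa, H2-Eb1, Ciita and every B cell marker drawn, and CML-TKI 1 and 2 the lowest levels of the 4 class II members.

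The class II members varied together from library to library. On log2 CPM, Pearson's r between pairs of them over the 8 libraries was from 0.86 (Cd74 with H2-Ab1) to 0.99 (H2-Aa with H2-Eb1), which is a description of libraries that share their depth and scaling. The genes outside the members whose log2 CPM followed the mean of the class II members most closely over the 8 libraries were Amigo2 (r = 0.98), Pskh1 (0.98), Ppp1r3b (0.97), Igf1 (0.97) and Hhex (0.97).

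Per kilobase of exon, the members formed steps. In CML LSCs the order of mean levels was B2m (788 ± 79.5 CPM per kb, SD, n = 4), H2-K1 (531 ± 127), H2-D1 (403 ± 98.4), H2-T23 (75.7 ± 17.7), Tap1 (49.0 ± 4.35), Cd74 (26.3 ± 3.25), Nlrc5 (24.8 ± 4.30), H2-Ab1 (11.3 ± 2.97), H2-Eb1 (8.59 ± 2.09) and H2-Aa (8.18 ± 1.99). The libraries overlapped between neighbours within the first 3, between Cd74 and Nlrc5 and within the last 3, and were apart at the other steps. In CML-TKI LSCs B2m (379 ± 154), H2-D1 (233 ± 62.6) and H2-K1 (179 ± 31.2 CPM per kb) again formed the top step, with H2-D1 now ahead of H2-K1, although these neighbours overlapped. Cd74 followed at 42.5 ± 58.0 CPM per kb and each later neighbour in the order overlapped the one before. Members farther apart in the order could still be separate, since the libraries of H2-T23 (17.7 to 32.6 CPM per kb) and Tap1 (16.8 to 24.9) all lay above those of H2-Ab1 (0.965 to 11.8) and H2-Eb1 (0.478 to 14.1).

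The other genes of the pathway were taken from lists, whose counts are again to be read beside the 3.93% lower and 6.29% higher among all genes. Of the 12 other class I and class I-like chains tested, 5 were lower and 0 higher in CML-TKI LSCs (edgeR, with 0 higher by an adjusted p under 0.05). In 8 of the 12 every CML-TKI library lay below every CML library, which held for 13.1% of all genes tested. Of the 5 lower by adjusted p, H2-Q7 and H2-Q6, genes of the Qa region, had the largest fold changes. H2-Q7 was at 132 to 246 CPM in CML and 10.5 to 35.1 CPM in CML-TKI libraries (log2 fold change -2.90, standard error 0.38, adjusted p = 0.00182). H2-Q6 was at 499.7 to 627 and 30.4 to 232 CPM (-2.34, standard error 0.50, adjusted p = 0.0175). H2-Q4 (-1.70, adjusted p = 0.0256) and H2-T10 (-1.74, adjusted p = 0.0277) were lower as well, as was H2-T22 (-1.42, adjusted p = 0.0133), a gene chosen after its values were seen. Several of these calls depended on the processing. H2-Q4 and H2-T10 each lost the call in 9 of 18 alternative settings, among them the fits without any one of the CML libraries (adjusted p from 0.0620 to 0.0664 for H2-Q4 and from 0.0720 to 0.0996 for H2-T10), H2-Q6 in 5, H2-T22 in 3 and H2-Q7 in 1, while all fold changes stayed negative. H2-Q9 (-2.29, adjusted p = 0.134) and H2-T24 (0.42, adjusted p = 0.647) did not pass, although H2-Q9 passed as lower with limma-voom (adjusted p = 0.0321) and without CML-TKI 2 (adjusted p = 0.0326). Between 22.03% and 35.8% of the 50-base stretches of H2-Q4, H2-Q6, H2-Q7, H2-T10 and H2-T22 occur in another gene. The summed counts of H2-Q6, H2-Q7 and H2-Q9 relative to H2-K1 were 0.557, 0.615, 0.556 and 0.480 in CML and 0.359, 0.0814, 0.513 and 0.233 in CML-TKI libraries, so the groups overlapped on this ratio.

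Genes that supply and load class I peptides did not move as one group. Of 13 tested, 2 were higher and 0 lower. Calr, a chaperone of the loading complex and of glycoprotein folding in general, was at 266 to 293 CPM in CML and 423 to 955 CPM in CML-TKI libraries (1.30, standard error 0.26, adjusted p = 0.0131). Pdia3, the disulfide isomerase of the same complex, was at 134 to 197 and 275 to 470.4 CPM (1.17, standard error 0.23, adjusted p = 0.0120). Of 18 alternative settings the call of Calr was lost in 6, among them without CML 1, 2 or 3, and that of Pdia3 in 3. The chaperone Canx (0.82, adjusted p = 0.0826) and the trimming peptidase Erap1 (-0.13, adjusted p = 0.863) did not pass, and neither did Tap2 (-0.89, adjusted p = 0.0568), the partner of Tap1, nor the immunoproteasome subunits Psmb8 (-0.51), Psmb9 (-0.92) and Psmb10 (-0.81), all 4 chosen after their values were seen. Tap2 passed as lower with DESeq2 (adjusted p = 0.0116), when scaled by total counts without Rn45s (adjusted p = 0.0449) and without CML-TKI 4 (adjusted p = 0.0449), and Canx passed as higher with DESeq2 (adjusted p = 0.0216) and limma-voom (adjusted p = 0.0230). The median log2 fold change of this list was -0.29.

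Of the 14 partners of the class II pathway tested, 3 were higher and 1 lower. The higher genes act in the endosome: Ctss, a cathepsin that trims the invariant chain, rose from 3.13 to 5.41 CPM in CML to 24.9 to 149 CPM in CML-TKI libraries (4.18, standard error 0.52, adjusted p = 0.00148). Ifi30, a thiol reductase, rose from 3.67 to 5.04 CPM to 28.9 to 105 CPM (3.75, standard error 0.46, adjusted p = 0.00141), a call lost in 1 of 18 alternative settings (adjusted p = 0.0551). The cathepsin Ctsb was at 126 to 168 and 236 to 369 CPM (1.11, adjusted p = 0.0126), a call lost in 5 of 18 alternative settings, among them without CML 1, 2 or 3. H2-DMb1, a chain of the DM molecule that exchanges class II peptides, fell by 1.33 on the log2 scale (adjusted p = 0.0344), with 27.2% of its 50-base stretches shared with H2-DMb2, and its partner H2-DMa did not pass (-0.89, adjusted p = 0.139). The call of H2-DMb1 was lost in 10 of 18 alternative settings, with an adjusted p of 0.119 with limma-voom and of 0.0574 to 0.125 without any one of the CML libraries. Phagocytes use these endosomal enzymes too, and the monocyte and granulocyte markers that rose in the same libraries are given above. The part of those cells in the higher levels was not tested.

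Ciita, the master regulator of class II genes, was at 14.8, 12.7, 9.28 and 9.07 CPM in CML libraries. In CML-TKI 1 to 4 it was at 3.42, 0.310 (1 count, below the floor of 3 counts), 65.8 and 2.86 CPM. Ciita thus lay below all CML libraries in 3 of these and above all in CML-TKI 3, as did H2-Aa. Its log2 fold change was 0.53 (standard error 1.15, adjusted p = 0.817) and turned to -2.33 without CML-TKI 3 (adjusted p = 0.0715), and it was also below 0 with limma-voom and with the replicate block. H2-Ob, chosen after its values were seen, likewise went from 0.66 (adjusted p = 0.747) to -0.98 (adjusted p = 0.537). Rfx5, a subunit of the X box binding complex, was at 66.1 to 83.1 CPM in CML and at 28.9, 40.0, 117 and 41.6 CPM in CML-TKI libraries (-0.43, adjusted p = 0.546), and it passed as lower without CML-TKI 3 (-1.02, adjusted p = 0.0260) and with limma-voom on all 8 libraries (-0.85, adjusted p = 0.0358).

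Among 12 interferon-gamma and NF-kB regulators tested, 3 were higher and 0 lower. Irf8, a transcription factor of monocyte and dendritic cell precursors, was at 7.22, 2.70, 6.76 and 8.80 CPM in CML libraries. It was at 71.0, 318, 246 and 356 CPM in CML-TKI libraries, higher by 5.26 on the log2 scale (standard error 0.57, adjusted p = 0.000870). Both chains of the interferon-gamma receptor were higher, Ifngr2 by 2.02 (adjusted p = 0.00654) and Ifngr1 by 1.69 (adjusted p = 0.0125) on the log2 scale, and the call of Ifngr1 was lost in 5 of 18 alternative settings, among them without CML 1 or 3, and that of Ifngr2 in 2 (adjusted p up to 0.147). Downstream of the receptor, Jak1 (-0.28, adjusted p = 0.602) did not pass, nor did Irf1 (-0.64, adjusted p = 0.126), which was chosen after its values were seen. Irf1 passed as lower without CML-TKI 3 (-0.84, adjusted p = 0.0308) and with DESeq2 (-0.68, adjusted p = 0.0466). Nfkb1 (-0.26, adjusted p = 0.530) did not pass.

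**Figure D4:**
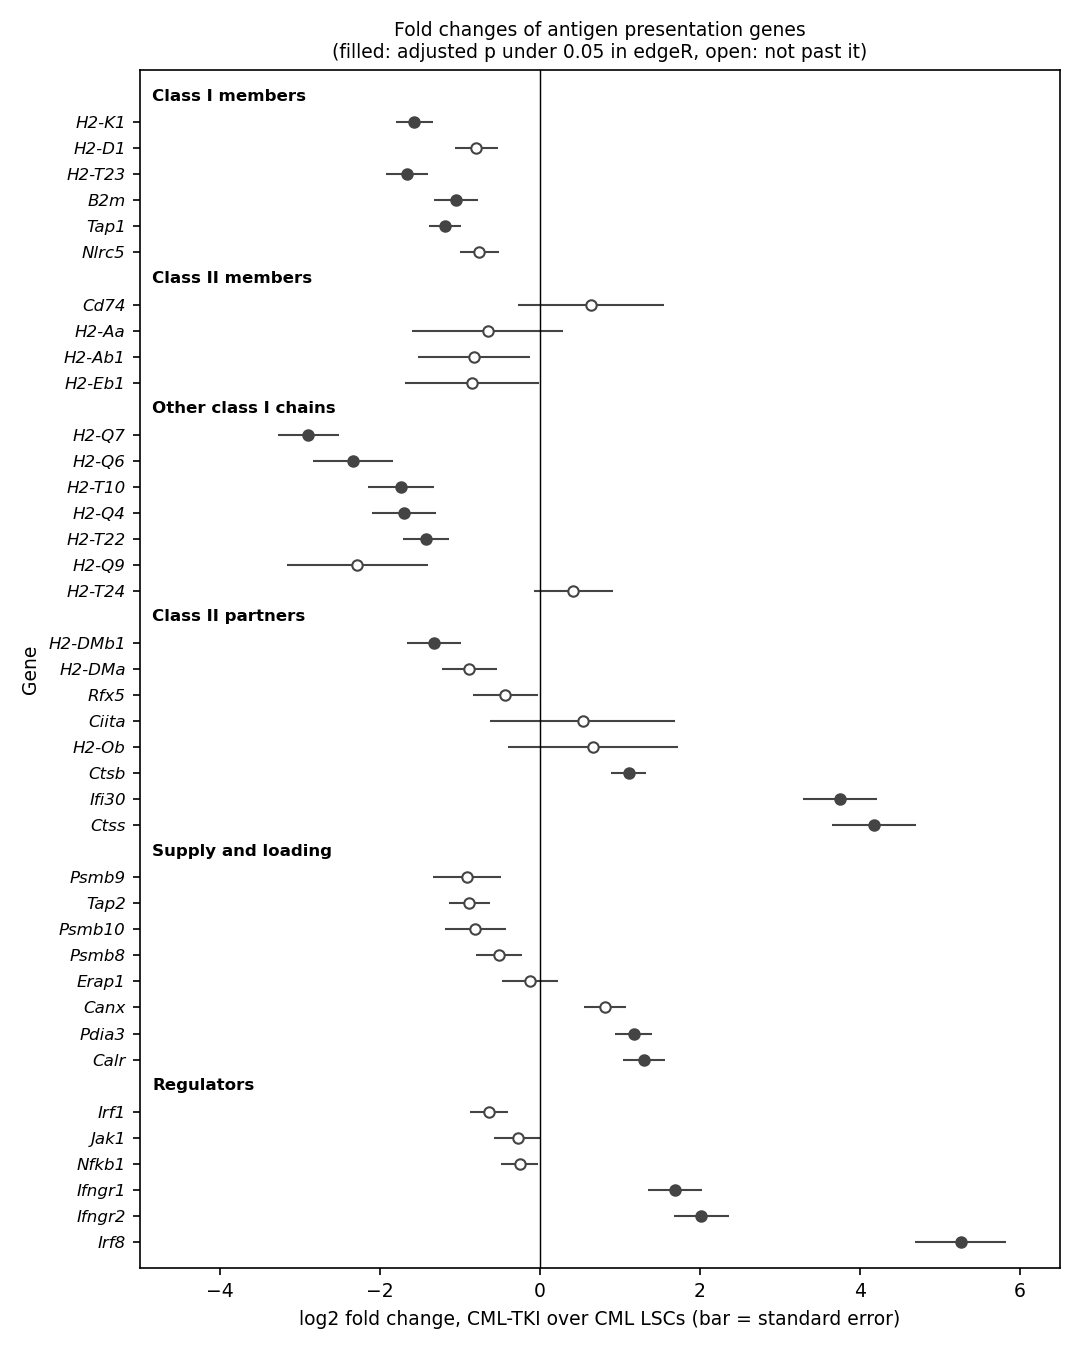
The log2 fold change (CML-TKI over CML, 4 libraries each) of the 10 members and of the pathway genes named, grouped by role, with standard errors as bars. Filled points, past an adjusted p of 0.05 in edgeR, lie below 0 for class I chains, B2m, Tap1 and H2-DMb1 and above 0 for Ctss, Ifi30, Ctsb, Calr, Pdia3, Irf8, Ifngr1 and Ifngr2. Cd74, Ciita and H2-Ob are drawn above 0 and lie below 0 without CML-TKI 3, and Erap1 lies above 0 without CML-TKI 1 or 4.

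Between the start of H2-K1 and the end of H2-T23 on chromosome 17 (33996012 to 36032701), 82 genes were tested. Of the 19 that belong to the MHC families or lists above, 8 were lower (42.1%) and 0 higher, with a median log2 fold change of -0.89. These lower genes were already counted above, H2-K1, H2-T23 and Tap1 among them. Of the 63 other genes in the same interval 2 were lower (3.17%) and 3 higher, with a median of -0.024. Among all genes tested, 3.93% were lower and 6.29% higher. The 5 past the threshold, named after their values were seen, were Zbtb12 and Ier3, which were lower, and Neu1, Hspa1a and Hspa1b, which were higher.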

How the data were processed

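The bulk RNA-seq libraries of LSCs, 4 CML and 4 CML-TKI, were analysed. The libraries were made with Nextera XT. Per the submitters' notes and the study's methods, the authors mapped the read pairs to mm10 (GRCm38) with STAR 2.6.1d and counted them on RefSeq transcripts with Partek Flow 8.0. The deposited values are estimated counts, 1 column a library, with no scaling. Strand and the assignment of shared reads are not given in the sources used here. Columns were matched to the labels by group and number. The CML column numbered 5, which no label gives, was used as a CML library. Between 8.32% and 22.1% of a library's values were not whole and were rounded.

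edgeR 4.0.16 (R 4.3.3) was used with TMM scaling, filterByExpr (minimum count 10, minimum total 15) and the robust quasi-likelihood test, with Benjamini-Hochberg adjustment over 11937 genes and a threshold of 0.05. Standard errors were derived from the fold change and F, and log2 CPM used a prior count of 2. The code was tested on simulated data. Alternatives were DESeq2 1.42.0, limma-voom (limma 3.58.1) with quality weights, other scalings and filters, the replicate block, each library left out, CML 1 to 3 summed, and the class I family summed.

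The members and lists were chosen with earlier results of these data known. Named were all members, per pathway list up to 4 genes past the threshold in each direction by size of change and the 2 most abundant not past it, Ciita, Rfx5, the sort genes and the 5 genes most like the class II mean. Exon lengths, exon overlaps and shared 50-base stretches came from GENCODE, and positions and promoters from RefSeq. The other experiments of the study were not analysed here. Some genes and sequences are not reported here.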

Additional observations from a re-analysis of the deposited data

Results flagged for a closer look

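In each group of 4 libraries, the highest and the lowest value of every member was compared with its nearest neighbour by Dixon's ratio, and 5 of the 20 groups passed its 95% critical value, which chance alone passes in about 1 in 20 groups. The groups here are not independent, since all members share the same libraries. H2-K1, H2-D1 and H2-T23 varied together (Pearson's r 0.89 to 0.99 over the 8 libraries), so the count of 5 cannot be judged by that share. CML 5 was high for 3 heavy chains: H2-K1 at 2118 CPM against 1431 CPM in the next CML library, H2-D1 at 1421 against 923 CPM, and H2-T23 at 294.8 against 203 CPM. Among CML-TKI libraries, H2-Aa in CML-TKI 3 stood far above the rest at 69.0 CPM, with the next library at 12.2 CPM. H2-D1 in CML-TKI 1 stood far below the rest at 359.5 CPM, with the next library at 650.4 CPM.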

How the results depend on the processing

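Among 18 alternative settings H2-K1 was past the threshold in 18, H2-T23 in 16, Tap1 in 16 and B2m in 8, all with negative fold changes. Over all members' fold changes, 157 kept their sign and side of the threshold, 14 lost a call, 6 gained one and 3, all of Cd74, changed sign. The 0 members higher held in every setting. The class II members had the fewest counts in CML-TKI 2, with 3 to 22 counts of each, while CML-TKI 3 was the shallowest library, where 3 counts correspond to 3.29 CPM. The cause of the changes below was not tested. Genes called (1220) became 2420 with DESeq2, 2563 with limma-voom, 122 with CML 1 to 3 summed and 505 to 2504 with each library left out. Members lower (4) became 1, H2-K1, with CML 1 to 3 summed. Pathway genes higher (8) and lower (6) became 2 and 1 with CML 1 to 3 summed, and ranged from 5 to 8 and from 2 to 9 with each library left out. Over the fits that leave out 1 library, fold changes ran from -0.85 to 1.02 for Cd74, -2.33 to 0.94 for Ciita, -0.98 to 1.08 for H2-Ob, -0.34 to 0.96 for Flt3 and -0.44 to 0.078 for Erap1. Fold changes that changed sign with limma-voom were Cd74 (-0.86), Ciita (-2.01) and H2-Ob (-1.47). Leaving out CML-TKI 3 turned Cd74, Ciita and H2-Ob, leaving out CML-TKI 4 turned Flt3 and Erap1 (0.015), leaving out CML-TKI 1 turned Erap1, and with CML 1 to 3 summed Erap1 was 0.030. The all-gene median (log2) was -0.12 when scaled by total counts without Rn45s and -0.11 with limma-voom.

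The replicate numbers 1 to 3 are shared by name alone, with correlations of -0.042, 0.097 and 0.093 between same-numbered libraries. With the replicate block on these 6 libraries 193 genes, 1 member lower (H2-K1, adjusted p = 0.0496) and 3 pathway genes higher and 0 lower were called, and without the block 589, 3, 5 and 1. With the block Cd74 (-1.32), Ciita (-1.39), H2-Ob (-0.72), H2-T24 (-0.34) and Flt3 (-0.37) changed sign, and without it H2-T24 (-0.20) and Flt3 (-0.30). With the block the all-gene median was -0.13.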

Other observations

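Ligands of the NK cell receptor NKG2D, which bind it as class I-like molecules without a peptide, had counts outside the pattern of the class I chains. Raet1e was at 0 in all 4 CML libraries and in CML-TKI 2, 3 and 4, and at 12.3 CPM (65 counts) in CML-TKI 1. Ulbp1 was at 8.66 to 16.6 CPM in CML and 15.3 to 20.1 CPM in CML-TKI libraries (log2 fold change 0.56, adjusted p = 0.346 in edgeR). The costimulatory gene Cd86 did not pass the test (-0.42, adjusted p = 0.671), and Cd40 was at most 0.520 CPM in 7 libraries and at 17.5 CPM (16 counts) in CML-TKI 3. These genes were chosen after their values were seen.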
